A study of Mus musculus with 1183 samples.

Results

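Among the immune cells of the neonatal mouse lung that the submitters labelled Mac V, 91 of 111 could be placed on 1 of 2 sides by a pair of genes. The Ly6c2 side held the 42 cells with Ly6c2 at 10 CPM or more and Ace under 10 CPM, where CPM (reads of the gene relative to all reads of the cell) is the usual scaled count. The Ace side held the 49 cells with the reverse. A further 13 cells had both genes at 10 CPM or more, 7 had neither, and both sets were left out of the comparison. The whole series has 1183 cells, each a sample of its own.

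Lungs of mouse pups aged 7 days, kept in hyperoxia (a raised oxygen level), gave the cells, which were taken from the distal part. Labels name 1 female animal (66 Mac V cells) and 1 male animal (45 Mac V cells), both in hyperoxia. Strain, genotype and the oxygen level are not given in the sources used here, and no lungs kept in room air were analysed here, so no effect of hyperoxia was estimated. Single cells had been sorted into plate wells, those of Mac V nearly all by a gate named CD45, the surface protein of blood-derived cells, and sequenced with a Tn5 library, in which a transposase cuts the cDNA and attaches the adapters. The animal is the replicate (n = 2), and a sex difference and an animal difference cannot be told apart. Within each animal, reads were summed over the cells of a side, which gave 4 libraries.

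Mouse blood monocytes are usually divided into classical cells, with much Ly6C protein and the chemokine receptor CCR2, and non-classical cells, with little Ly6C and much of the fractalkine receptor CX3CR1. Classical monocytes leave the marrow through CCR2 and enter injured tissue, where they can become macrophages. Non-classical monocytes patrol the inner wall of vessels, arise from classical ones, and depend on the transcription factor NR4A1. Ly6c2 encodes the Ly6C2 protein. Ace encodes angiotensin-converting enzyme, a peptidase of the cell surface that is also made by lung endothelium.

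The members were chosen by Ly6c2 and Ace, so the levels of these 2 genes are given as a description. On the Ly6c2 side the lowest, median and highest Ly6c2 values per cell were 311, 1690 and 6124 CPM for female cells and 274, 2698 and 5606 CPM for male cells. Ace had no read in any of those 42 cells. On the Ace side the lowest, median and highest Ace values were 18.1, 327 and 1873 CPM for female cells and 15.4, 547 and 1800 CPM for male cells. No read of Ly6c2 was found in 32 of its 33 female cells and 15 of its 16 male cells. Over all Mac V cells, the Ly6c2 value just outside the threshold was 5.72 CPM and the one just inside was 18.96 CPM. For Ace no cell lay between 0 and 15.4 CPM. Of the cells at 10 CPM or more, 2 of 55 for Ly6c2 and 9 of 62 for Ace were under 30 CPM. In 7 of the 13 cells with both genes, 1 of the genes was under 30 CPM.

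**Figure D1:**
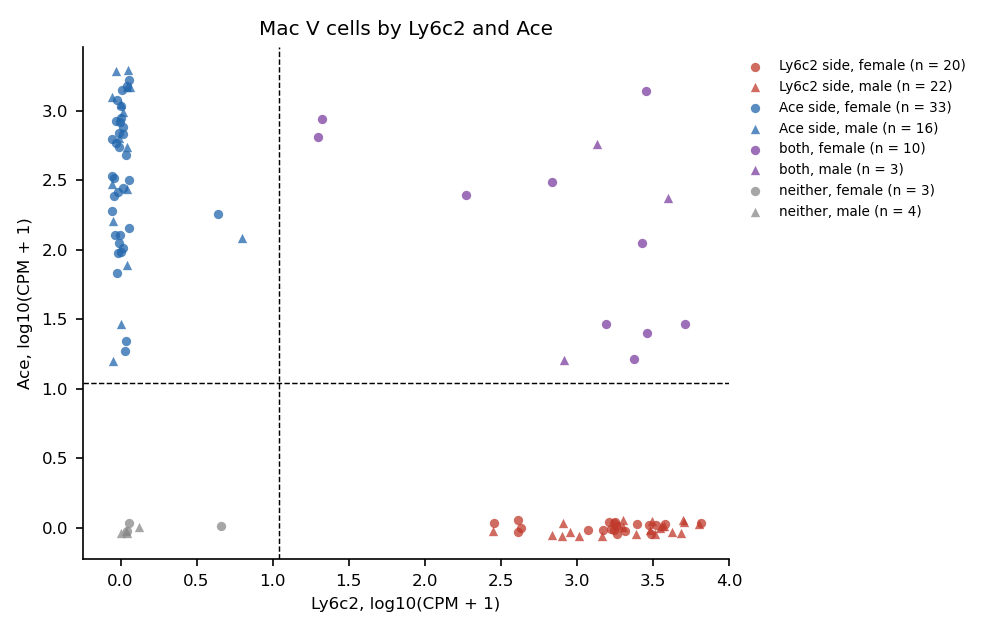
Each point is 1 Mac V cell, with Ly6c2 on the x axis and Ace on the y axis, both as log10(CPM + 1) with a small random shift so that cells at 0 can be seen; circles are the female and triangles the male, and dashed lines mark 10 CPM. The 42 cells of the Ly6c2 side lie on the x axis at 274 CPM or more, the 49 cells of the Ace side on or near the y axis, and 13 cells have both genes.

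The sides made up different shares of Mac V in the animals. In the female 20 of 66 Mac V cells lay on the Ly6c2 side, a share of 30.3% (95% Clopper-Pearson limits 19.6% and 42.9%). In the male it was 22 of 45, or 48.9% (limits 33.7% and 64.2%). The Ace side held 50% (33 of 66) and 35.6% (16 of 45). The intervals of the Ly6c2 side overlapped, and with 1 animal per sex the difference has no replicate check. The Ly6c2-side share was nearly the same on the CD45 plates of 1 animal: 30.6% and 31% for the female plates, 50% and 48% for the male plates.

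Cells of the Ly6c2 side were sequenced more deeply and held more detected genes. The median Ly6c2-side cell had 1393046 (female) and 1119668 (male) reads, and the median Ace-side cell 944180 and 677355. With each cell thinned at random to 100000 reads, the median number of genes detected was 3189 and 2949 on the Ly6c2 side and 2456 and 2207 on the Ace side, leaving out 1 shallower male cell of the Ly6c2 side. Without thinning it was 4034.5 and 3882.5 against 2984 and 2931. The summed libraries held 28470809 (female) and 24540652 (male) reads on the Ly6c2 side and 30604032 and 12194933 on the Ace side. All 91 cells had at least 3 of 7 monocyte markers other than Ly6c2 and Ace at 50 CPM or more. At least 3 markers of another cell type were at 50 CPM or more in 6 cells. Of these, 4 were Ly6c2-side cells with neutrophil markers (1 female, 3 male). The other 2 were female Ace-side cells, 1 with macrophage markers of the C1q type and 1 with markers from a joint T and NK cell list.

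The comparison across all genes asked which messages separated the sides in both animals. Few genes passed the test. It favours genes whose difference is alike in both animals, so the likeness of the called genes in the female and the male is not a separate result. From here on, levels are given as female then male. In edgeR's quasi-likelihood test with the animal as a block, 4 of 9965 genes tested (0.0401%) had an adjusted p under 0.05 and were higher on the Ly6c2 side, and 8 (0.0803%) were higher on the Ace side. Ly6c2 and Ace were left out of these counts. Without the block the counts were 7 and 10. At an unadjusted p under 0.05 there were 781 genes in both directions. DESeq2 called 494 and 416, and edgeR on cells thinned to 100000 reads called 31 and 58, with all 12 genes named below among them in each case. Without the 6 cells that held markers of another cell type, a choice made after seeing the data, edgeR called 15 and 25, again with all 12.

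Some settings ended calls. With all subtypes in the fit Cd9 alone of the 12 stayed called, and with sides chosen by Ccr2 and Treml4 in place of the rule S100a8 alone did (Treml4 then chose the cells). At a threshold of 100 CPM, Fn1 was lost (edgeR adjusted p = 0.119). On cells with DC35 in their title alone, Cd9, Ly6i, Treml4 and Ear2 were lost, with edgeR adjusted p of 0.0535 to 0.0857. That set leaves out the first female CD45 plate and a female Ace-side cell sorted by another gate. On the first CD45 plates alone S100a8, Fos, Ly6i, Cyfip2 and Ccl2 were lost, and on the second plates Cd9 and Ly6i. In limma-voom S100a8, Eno3, Cd9, Ly6i and Cyfip2 were lost, with adjusted p of 0.0507 to 0.117.

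By size alone, 211 genes (2.12%) were at least 4-fold higher on the Ly6c2 side in both animals and 187 (1.88%) were at least 4-fold higher on the Ace side, on the CPM + 1 scale and with at least 20 CPM on the higher side in both. A further 142 genes, with 20 CPM or more on the higher side in both animals, differed at least 4-fold in opposite directions in the female and the male. The count of genes past 4-fold in both animals is therefore to be read beside that number, and no test goes with it.

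**Figure D2:**
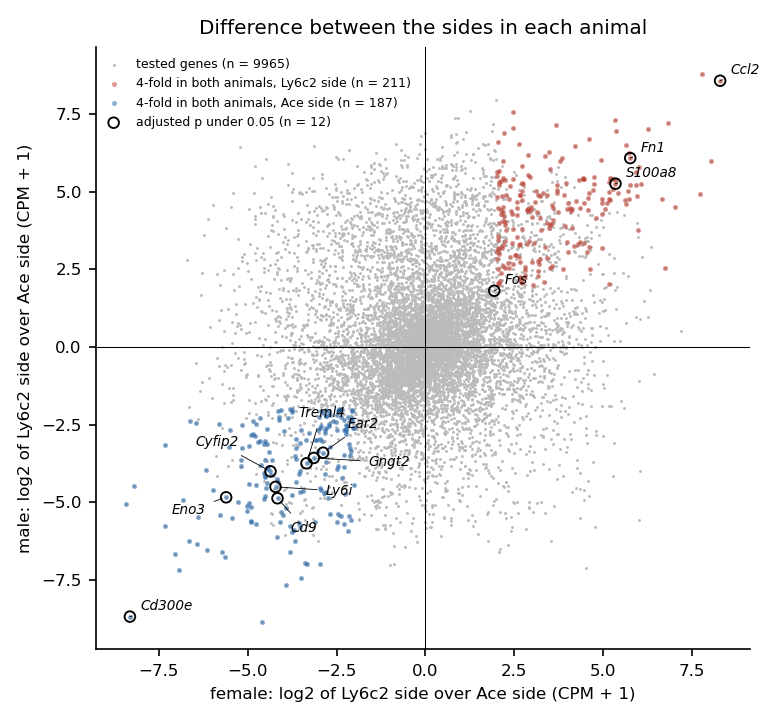
Each point is 1 of 9965 tested genes, with the log2 ratio of the Ly6c2 side over the Ace side (CPM + 1) in the female on the x axis and in the male on the y axis; red and blue points are past 4-fold in both animals and circled genes have an edgeR adjusted p under 0.05. The 12 circled genes lie close to the diagonal, a position that the test favours. Ccl2, Fn1, S100a8 and Fos are at the upper right and Cd300e is farthest at the lower left.

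Fn1, which encodes the matrix protein fibronectin, was the clearest gene of the Ly6c2 side. Its summed level was 2602 and 2701 CPM on the Ly6c2 side, against 47 and 38.7 CPM on the Ace side. All 42 Ly6c2-side cells had it at 10 CPM or more, against 18.2% and 6.25% of Ace-side cells. The log2 fold change was 5.98 ± 0.28 (SE implied by the F statistic, n = 2 animals, edgeR adjusted p = 0.00413). The levels of the sides did not overlap, and the animals differed far less than the sides. S100a8, a calcium-binding protein that neutrophils and classical monocytes hold in quantity, stood at 1174 and 1263 CPM against 27.9 and 31.9 CPM. Its log2 fold change was 5.37 ± 0.30 (edgeR adjusted p = 0.00547).

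Neutrophil markers were set beside S100a8. Its partner S100a9 was at 75.2 and 130 CPM in 15% and 13.6% of Ly6c2-side cells and had no read on the Ace side. The granulocyte colony-stimulating factor receptor Csf3r was at 241 and 292 CPM on the Ly6c2 side and 238 and 389 CPM on the Ace side. The neutrophil genes Retnlg, Camp, Ltf and Ly6g were at 0.082 CPM or less in all 4 libraries. Of the 11 neutrophil markers 5 were tested, and their median log2 fold change was 5.37. In both animals 4 had higher values on the Ly6c2 side and 0 on the Ace side. On the Ly6c2 side 2 lay past 4-fold, against 2.12% of all tested genes. There 1 (S100a8) was called, against 0.0401%. The summed level of the 11 neutrophil markers, S100a8 among them, was 1513 and 1695 CPM against 280 and 422 CPM. The other 10 summed to 338 and 433 CPM against 252 and 390 CPM, so that most of the gap was S100a8 itself. In each animal 1 cell gave a large part of the Ly6c2-side reads of S100a8, 45.7% and 34.6%. Without the 6 cells with markers of another type, S100a8 was still at 697 and 676 CPM against 31.1 and 31.9 CPM, a log2 fold change of 4.46 (edgeR adjusted p = 0.00417).

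Fos, an immediate early transcription factor, was at 7132 and 5976 CPM on the Ly6c2 side and 1862 and 1698 CPM on the Ace side. The difference was smaller than the others but even, with a log2 fold change of 1.89 ± 0.19 (edgeR adjusted p = 0.0416). The call was lost without the block (adjusted p = 0.0632), and without the block it was also lost when the female Ace library (0.0871) or the male Ace library (0.199) was left out. Ccl2, the ligand of CCR2, was at 322 and 382 CPM with 1 read on the whole Ace side, a ratio of 14973 (95% counting interval 2687 to 591440; edgeR adjusted p = 0.00698). Its reads came from few cells: 15% of female and 13.6% of male Ly6c2-side cells reached 10 CPM, and a single cell gave 84.6% and 65.9% of the reads. It is named because the test called it, although too few cells carried it for the naming rule.

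Other genes named by size on the Ly6c2 side did not pass the test. F13a1, the A chain of coagulation factor XIII, was at 398 and 440 CPM against 0.817 and 0 CPM (log2 fold change 10.20 ± 1.25, edgeR adjusted p = 0.0795). In 80% and 77.3% of Ly6c2-side cells it reached 10 CPM, against 1 of 49 Ace-side cells. Mmp8, a collagenase, was at 134 and 88.5 CPM against 6.37 and 0 CPM. Sgms2 (sphingomyelin synthesis), Gas7, Fkbp2, Cdkn2d (a cyclin-dependent kinase inhibitor), Glmp, Rab3d (vesicle traffic) and Daxx had fitted log2 fold changes of 4.05 to 5.91 with edgeR adjusted p of 0.515 to 0.814. For these 7 genes the animals were uneven. Cdkn2d, for example, was at 215 and 166 CPM on the Ly6c2 side against 113 and 0 CPM on the Ace side.

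Ccr2, the receptor through which classical monocytes leave the marrow, was at 1014 and 1286 CPM on the Ly6c2 side and 212 and 78.6 CPM on the Ace side. It reached 10 CPM in 90% and 100% of Ly6c2-side cells and in 27.3% and 25% of Ace-side cells. The log2 fold change was 3.16 ± 0.50 and missed the threshold (edgeR adjusted p = 0.136).

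**Figure D3:**
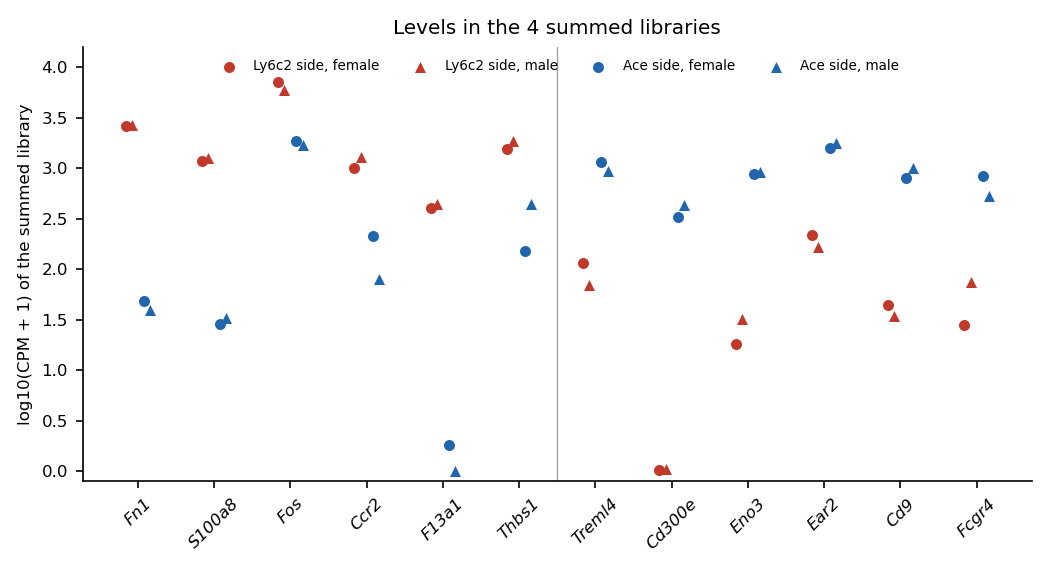
Each point is the level of a gene in 1 of the 4 summed libraries, as log10(CPM + 1) on the y axis, with 6 genes of the Ly6c2 side to the left of the line and 6 genes of the Ace side to the right; circles are the female, triangles the male. For every gene shown the red points (Ly6c2 side) and the blue points (Ace side) do not overlap, from Fos at 5976 against 1862 CPM to Cd300e at 2 reads against 328 CPM or more. The genes shown were called or past 4-fold in both animals, so this gap is not a separate result.

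Of the 8 genes called on the Ace side, 5 belong to the list of non-classical monocyte genes described below. That list was chosen with earlier results of these data known. Cd300e, an activating receptor of the CD300 family, was at 328 and 427 CPM on the Ace side, with 2 reads in all on the Ly6c2 side. That is a ratio of 9449 (95% counting interval 2615 to 78034; edgeR adjusted p = 0.00508), and 51.5% and 56.2% of Ace-side cells reached 10 CPM. Treml4, a receptor of the TREM family that amplifies Toll-like receptor 7 signals, was at 1160 and 928 CPM against 113 and 68.3 CPM. Its log2 fold change was -3.54 ± 0.30 (edgeR adjusted p = 0.0219), so that higher levels again lay on the Ace side in both animals.

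Eno3, the muscle form of the glycolytic enzyme enolase, was at 884 and 917 CPM against 17.2 and 31 CPM (log2 fold change -5.27 ± 0.39, edgeR adjusted p = 0.0161). Cd9, a tetraspanin of the cell membrane, was at 797 and 996 CPM against 43.6 and 33 CPM (-4.53 ± 0.35, edgeR adjusted p = 0.0184). Both were found in most Ace-side cells, with 81.2% or more at 10 CPM, and in 20% or fewer of Ly6c2-side cells. Gngt2, a G protein gamma subunit, was at 1494 and 1765 CPM against 168 and 147 CPM (-3.35 ± 0.27, edgeR adjusted p = 0.0186). Cyfip2, a regulator of the actin cytoskeleton, was at 732 and 457 CPM against 34.7 and 27.5 CPM (-4.21 ± 0.37, edgeR adjusted p = 0.0232).

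Members of families with near-identical copies also stood on the Ace side, and their counts are uncertain to the extent that reads could be split between copies. Ear2, an eosinophil-type ribonuclease, was at 1601 and 1770 CPM against 217 and 166 CPM (-3.13 ± 0.27, edgeR adjusted p = 0.0232). Ly6i, a relative of Ly6c2, was at 320 and 494 CPM against 16.3 and 20.8 CPM (-4.41 ± 0.43, edgeR adjusted p = 0.0416). It lay on the side opposite to Ly6c2. The near-identical copy Ly6c1 had 115 reads on the Ly6c2 side and 5 on the Ace side. Of the genes named by size, Dusp16 (a phosphatase of MAP kinases), Lair1 (an inhibitory collagen receptor), Bcl2a1a and Slc12a2 (an ion cotransporter) had fitted log2 fold changes of -7.84 to -5.61 and edgeR adjusted p of 0.238 to 0.455.

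Fcgr4, the receptor for immunoglobulin G that marks mouse non-classical monocytes, was at 843 and 534 CPM on the Ace side and 27.1 and 74.1 CPM on the Ly6c2 side. It reached 10 CPM in 90.9% and 87.5% of Ace-side cells against 20% and 27.3%. The log2 fold change was -3.88 ± 0.62 and missed the threshold (edgeR adjusted p = 0.136). The 3 markers other than Ly6c2 and Ace, namely Ccr2, Fcgr4 and Treml4, lay past 4-fold in the direction of their side in both animals. Treml4 passed the test. These markers were chosen with earlier results of these data known, so their direction is a description and not separate support.

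Upstream sequences are shown for 1 gene of each side that shares a short motif, S100a8 and Fcgr4, and for Treml4, which lacks it. They are the 250 bases before the RefSeq start of each gene (GRCm38.p6, all on the plus strand): S100a8 at chr3:90668821-90669070, Fcgr4 at chr1:171018676-171018925 and Treml4 at chr17:48264045-48264294. Capitals mark GAGGAAGT, a core letter string of sites for PU.1 (Spi1), the factor that specifies myeloid cells, which here is read on the opposite strand.
S100a8: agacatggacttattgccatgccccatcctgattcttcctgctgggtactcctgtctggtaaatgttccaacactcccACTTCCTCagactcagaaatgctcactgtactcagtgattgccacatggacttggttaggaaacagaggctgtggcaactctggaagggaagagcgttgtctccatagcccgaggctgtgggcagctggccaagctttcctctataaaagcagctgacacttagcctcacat
Fcgr4: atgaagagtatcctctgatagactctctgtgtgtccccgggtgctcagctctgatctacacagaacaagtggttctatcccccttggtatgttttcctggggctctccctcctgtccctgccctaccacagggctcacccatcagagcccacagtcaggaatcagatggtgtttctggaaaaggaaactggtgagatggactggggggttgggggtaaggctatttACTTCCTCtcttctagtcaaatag
Treml4: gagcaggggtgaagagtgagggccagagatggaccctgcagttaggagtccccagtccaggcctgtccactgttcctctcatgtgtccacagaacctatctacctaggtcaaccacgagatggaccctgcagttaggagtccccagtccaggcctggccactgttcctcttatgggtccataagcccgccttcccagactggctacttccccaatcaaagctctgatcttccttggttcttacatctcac
The string began 172 bases before the start in S100a8 and 24 bases before it in Fcgr4.

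Of the 27 genes named above by rule, test or as markers, 21 had a window of 300 bases (250 before and 50 after the RefSeq start) among those used, 11 of the Ly6c2 side and 10 of the Ace side. Windows of a left-out chromosome were not searched for these genes, but they count among all windows. Some had several starts, for 31 windows in all, and a gene was counted if any of its windows held the string. On either strand GAGGAAGT occurred in 3 of the 11 (F13a1, Mmp8 and S100a8) and in 2 of the 10 (Bcl2a1a and Fcgr4), against 3.2% of all 32851 windows. Genes of both sides thus held it. The NR4A-type string AAAGGTCA (in 1.51% of all windows), the octamer ATGCAAAT (1.74%) and the C/EBP-type TTGCGCAA (0.183%) occurred in none of the 21. The KLF-type CCACACCC (3.56%) occurred in Fkbp2 and Rab3d, and the AP-1-type TGACTCA (5.2%) in Sgms2. In these windows 0 matches of different motifs shared a base. A match is a description of letters only.

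Gene lists were then read by role, with the count of members called and past 4-fold in both animals set beside the shares over all genes given above. Lists were chosen with earlier results of these data known, so their counts are a description. With 0.0401% (Ly6c2 side) and 0.0803% (Ace side) of all tested genes called, a list with no call is near those shares. The shares past 4-fold in both animals were 2.12% and 1.88%. Of 19 tested classical monocyte genes other than Ly6c2, 1 (Fn1) was called higher on the Ly6c2 side and 0 on the Ace side. By size 7 lay past 4-fold on the Ly6c2 side and none on the Ace side, and 16 had higher values on the Ly6c2 side in both animals. Over all tested genes 30.4% had higher values on the Ly6c2 side in both animals and 27.1% on the Ace side. The median fitted log2 fold change was 3.16, against 0.15 over all tested genes. Among those past 4-fold were Ccr2, Fn1, F13a1, Mmp8, Ms4a4c and the proteoglycan Vcan (70 and 157 against 0.752 and 0 CPM).

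Some classical genes were higher on the Ly6c2 side by less than 4-fold, lay close to equal or lay on the Ace side. Plac8, a gene of high level in monocytes, was at 2555 and 3074 CPM on the Ly6c2 side and 2551 and 2756 CPM on the Ace side (log2 fold change 0.10 ± 0.20). Lyz2, which encodes lysozyme, was higher on the Ly6c2 side in both animals but not past 4-fold. It was at 48575 and 54203 CPM against 22896 and 16871 CPM (1.40 ± 0.21, edgeR adjusted p = 0.124). Klf4 and the lectin Clec4e had values above those of the Ly6c2 side on the Ace side in both animals, at 479 and 604 against 265 and 187 CPM and at 388 and 240 against 69.5 and 184 CPM, and neither was called. Chil3 had no read in any library.

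Of 23 tested non-classical genes other than Ace, 5 were called higher on the Ace side (Treml4, Eno3, Ear2, Gngt2 and Cd300e) and 0 on the Ly6c2 side. By size 14 lay past 4-fold on the Ace side, and all 23 had higher values there in both animals. The shares over all tested genes were 1.88% and 27.1%, and 0.0803% for calls on the Ace side. Because this list was chosen with earlier results of these data known, these counts are not separate support. The median log2 fold change was -2.71. Among those not called, Spn (CD43, a sialoprotein) was at 367 and 485 against 51.7 and 78.2 CPM. The scavenger receptor Cd36 was at 227 and 505 against 15.9 and 7.21 CPM. Cx3cr1, the fractalkine receptor, was at 648 and 388 against 92.1 and 183 CPM (-1.93 ± 0.51, edgeR adjusted p = 0.407).

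**Figure D4:**
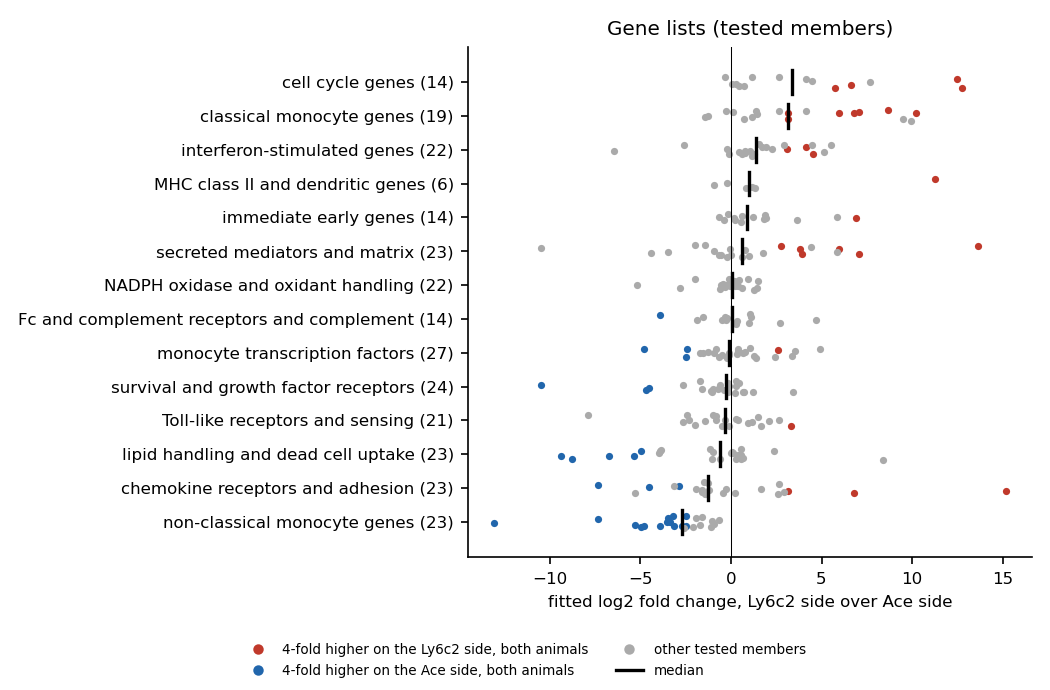
Each point is a tested member of a gene list, with its fitted log2 fold change (Ly6c2 side over Ace side) on the x axis and the lists, with their number of tested members, on the y axis; red and blue points are past 4-fold in both animals and black bars are medians. Classical genes lie mostly to the right (median 3.16), all 23 non-classical genes lie to the left (median -2.71), and the oxidant handling list has no point past 4-fold. Over all tested genes 2.12% (Ly6c2 side) and 1.88% (Ace side) were past 4-fold. The lists were chosen with earlier results of these data known.

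Receptors for migration and adhesion split between the sides. Of 23 tested, 1 was called, Cd9 on the Ace side, against 0.0803% of all tested genes. Past 4-fold lay 3 on the Ly6c2 side (Ccr1 and Ccr2 among them) and 3 on the Ace side (Cd9, Itgax and Icam1). The shares over all tested genes were 2.12% and 1.88%. The median of the list was -1.27. Ccr1, a receptor for CCL3 and CCL5, was at 260 and 62.5 CPM in 55% and 45.5% of Ly6c2-side cells and had no read on the Ace side, which makes it at least 2404-fold higher (3 counts over the side taken as the floor; edgeR adjusted p = 0.0795). The integrins that hold leukocytes to vessel walls pointed the other way. Itgal was at 1465 and 1392 against 620 and 361 CPM, Itgb2 at 1861 and 1301 against 664 and 515 CPM and Itga4 at 1930 and 1954 against 861 and 729 CPM, and none of the 3 was called (edgeR adjusted p of 0.144 to 0.16).

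None of 27 tested monocyte transcription factors was called in either direction, which is near the shares over all tested genes (0.0401% and 0.0803%). By size Pou2f2 (Oct-2), Tcf7l2 and Hes1 lay past 4-fold on the Ace side and Maf on the Ly6c2 side. The shares over all tested genes were 1.88% and 2.12%. The median of the list was -0.13. Pou2f2 was at 880 and 844 against 127 and 179 CPM (-2.50 ± 0.31, edgeR adjusted p = 0.0798), and Tcf7l2, a factor of Wnt signalling, was at 496 and 734 against 104.7 and 117 CPM. Nr4a1, on which non-classical monocytes depend, was at 2342 and 1784 CPM on the Ace side and 1888 and 839 CPM on the Ly6c2 side. Within each animal Nr4a1 was higher on the Ace side, although its levels overlapped across the animals. The log2 fold change of Nr4a1 was -0.68 ± 0.26 (edgeR adjusted p = 0.61). Spi1, which encodes PU.1, was at 1142 and 1159 against 803 and 837 CPM (edgeR adjusted p = 0.663).

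Of 14 tested immediate early genes, which also respond to handling of cells, 1 (Fos) was called on the Ly6c2 side and 0 on the Ace side. Fosb alone lay past 4-fold, on the Ly6c2 side. The shares over all tested genes on that side were 0.0401% called and 2.12% past 4-fold. In both animals 8 had higher values on the Ly6c2 side and 1 (Nr4a1) on the Ace side, against 30.4% and 27.1% of all tested genes, and the median was 0.91. Fosb was at 127 and 120 against 4.22 and 0.164 CPM, Junb at 1882 and 1620 against 857 and 674 CPM and Egr1 at 626 and 289 against 209 and 69.9 CPM, with edgeR adjusted p of 0.173 to 0.312. Dusp1 was not called, at 1968 and 1029 against 1576 and 1045 CPM. The part of cell handling in these values was not tested.

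Among 23 tested secreted mediators and matrix genes, 2 were called (Fn1 and Ccl2) and 6 lay past 4-fold on the Ly6c2 side; 0 were called or past 4-fold on the Ace side. The other 4 past 4-fold were Thbs1, Slpi, Osm and Mmp8. The shares over all tested genes on the Ly6c2 side were 0.0401% called and 2.12% past 4-fold. Thbs1, the matrix protein thrombospondin-1, was at 1550 and 1865 against 151 and 438 CPM (2.74 ± 0.36, edgeR adjusted p = 0.0823). Slpi, an inhibitor of neutrophil elastase, was at 427 and 275 against 22.5 and 27.9 CPM, and the cytokine Osm (oncostatin M) at 396 and 160 against 75.3 and 3.44 CPM. Il1b, a cytokine of inflammation, was at 807 and 553 against 1669 and 700 CPM (edgeR adjusted p = 0.641). Within each animal it was higher on the Ace side, although the levels overlapped across the animals.

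Lipid handling and survival genes past 4-fold lay on the Ace side alone, where 1.88% of all tested genes were past 4-fold. No member of either list was called in either direction, near the shares of 0.0401% and 0.0803% over all tested genes. The members past 4-fold are given next. Of 23 tested lipid genes these were Cd36, Abca1 (a cholesterol exporter), Pparg, Lpl (lipoprotein lipase) and Tgm2 (a transglutaminase), with a list median of -0.60. Pparg, a nuclear receptor for lipids, was at 99.6 and 235 against 0 and 2.12 CPM, and Tgm2 at 423 and 503 against 29.5 and 4.2 CPM. Of 24 tested survival and growth factor genes they were Bcl2 and the copies Bcl2a1b and Bcl2a1d, all of which hold back cell death. Bcl2 was at 134 and 155 CPM on the Ace side with 5 reads on the Ly6c2 side (edgeR adjusted p = 0.0552). Csf1r, the receptor for colony-stimulating factor 1, was at 2364 and 2386 against 819 and 656 CPM.

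Sensing genes showed a single gene past 4-fold and no call among 21 tested. Cd14, the co-receptor for bacterial lipopolysaccharide, was at 812 and 616 CPM on the Ly6c2 side and 123 and 43 CPM on the Ace side (3.30 ± 0.41, edgeR adjusted p = 0.0798). Of 22 tested interferon-stimulated genes none was called, 3 lay past 4-fold on the Ly6c2 side (Ifi47, Mx1 and Usp18), and the median was 1.39. Ifitm3, the member with the most reads, was at 3106 and 4838 against 1970 and 3344 CPM. Within each animal it was higher on the Ly6c2 side, although the levels overlapped across the animals. Fcgr4 was the only one of 14 tested Fc and complement genes past 4-fold, and none was called. For these 3 lists the shares over all tested genes were 0.0401% (Ly6c2 side) and 0.0803% (Ace side) called. Past 4-fold they were 2.12% and 1.88%.

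NADPH oxidase and oxidant handling genes, which bear on a lung in hyperoxia, had 0 of 22 members called and none past 4-fold in both animals, with a median of 0.06. Over all tested genes 0.0401% and 0.0803% were called and 2.12% and 1.88% were past 4-fold (Ly6c2 side, then Ace side). A list of 22 with 0 is near those shares. Cybb and Cyba, the subunits of the oxidase core, were at 1730 and 2199 against 2306 and 1987 CPM and at 2209 and 2361 against 1904 and 1926 CPM. Hmox1, which degrades heme, was at 148 and 270 against 988 and 632 CPM (-1.96 ± 0.44, edgeR adjusted p = 0.282). Sod1, a superoxide dismutase, was at 1354 and 2407 against 613 and 921 CPM (edgeR adjusted p = 0.168). Gpx1, a glutathione peroxidase, was at 3268 and 4508 against 3107 and 5149 CPM, and the sides overlapped.

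Of 15 genes of MHC class II presentation and dendritic cells, 6 had reads enough to be tested and none was called. The class II chain gene H2-Aa was at 0.164 CPM or less in all 4 libraries. Clec10a was past 4-fold, at 62 and 48.6 CPM in 25% and 13.6% of Ly6c2-side cells with 1 read on the Ace side. Cell cycle genes had 0 of 14 called and 4 past 4-fold on the Ly6c2 side (Ube2c, Mcm5, Ccnb2 and Stmn1), with a median of 3.39. For both lists the shares over all tested genes were 0.0401% (Ly6c2 side) and 0.0803% (Ace side) called. Past 4-fold they were 2.12% and 1.88%. The cyclin Ccnb2 was at 217 and 29.4 CPM in 35% and 13.6% of cells with 1 read on the Ace side. By a rule of 4 of 10 cell cycle genes at 5 reads after thinning, 1 of 20 female Ly6c2-side cells was cycling. No other cell of either side was, with 0 of 33 female Ace-side cells allowing up to 9.09%, 0 of 21 male Ly6c2-side cells up to 14.3% and 0 of 16 male Ace-side cells up to 18.8%. The Ly6c2 side's higher number of detected genes, given above, goes with these values, and its part in them was not tested.

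Each animal had CD45 plates numbered 1 and 2, which allowed the difference to be read 4 times. All 12 called genes had the same direction on all 4 plates. They were called on sums over these same cells, so this likeness is not separate support. The log2 ratio (CPM + 1) ran from 4.49 to 11.19 for Fn1, from 4.32 to 10.60 for S100a8 and from 1.6 to 2.26 for Fos. It ran from -8.91 to -7.98 for Cd300e, from -3.97 to -2.92 for Treml4 and from -4.15 to -2.58 for Gngt2. Plates of an animal share the animal and are not replicates. Plac8, which was not called, was higher on the Ly6c2 side on 2 plates and lower on 2, from -0.27 to 0.86.

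**Figure D5:**
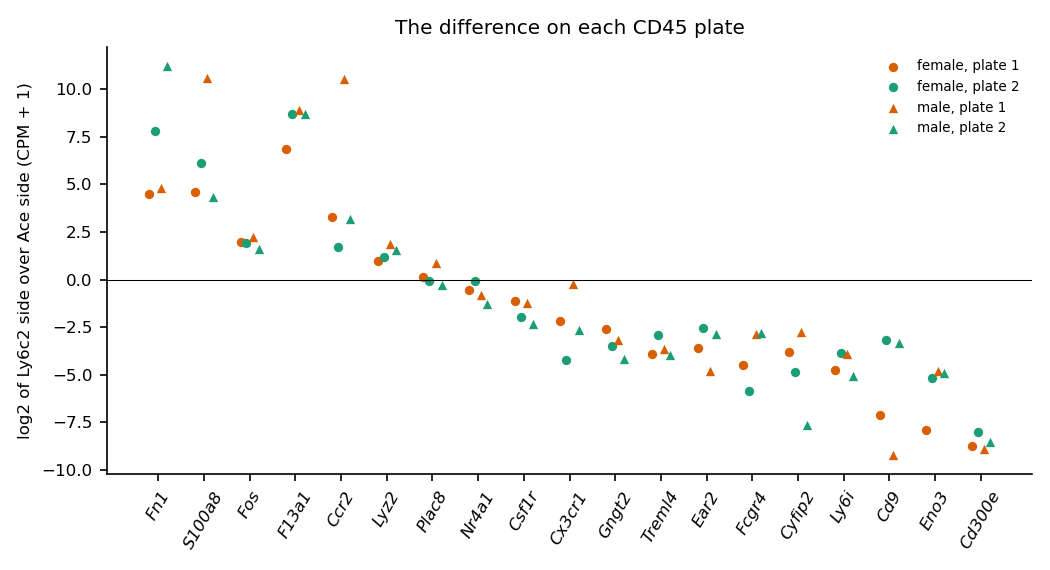
Points are log2 ratios of the Ly6c2 side over the Ace side (CPM + 1, y axis) for 19 genes (x axis) on each CD45 plate, with circles for the female, triangles for the male and colors for the plate number. Fos lies between 1.6 and 2.26 on all 4 plates, Treml4 between -3.97 and -2.92, and Plac8 straddles 0.

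The 13 cells with both genes were not used to find any of these differences. In 10 female and 3 male cells the Ly6c2 median was 1922 and 1309 CPM, and their Ace median 172 and 208 CPM. Several genes lay between the sides in both animals. Fn1 was at 831 and 1603 CPM, Eno3 at 247 and 498 CPM, Treml4 at 609 and 175 CPM, Gngt2 at 469 and 916 CPM and Csf1r at 2011 and 1257 CPM. Cd300e was nearer to the Ly6c2 side, at 29.2 and 0 CPM, with 1 of 13 cells at 10 CPM or more. Other genes lay outside the sides. Cx3cr1, at 659 and 427 CPM, and Plac8, at 3469 and 5517 CPM, were above both sides in both animals. Fcgr4 was below both sides in the female (16.2 CPM) and between them in the male (325 CPM). Median reads per cell were 1213339 and 1631371, in the female between the medians of the sides and in the male above both. With 3 cells in the male these values are a description, and a well with 2 cells cannot be told apart from a cell with both messages.

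Other labelled subtypes gave the background of the rule. Among 53 basophils 0 had Ly6c2 or Ace at 10 CPM or more, which allows up to 5.66%, at a median of 1252011 reads. Ly6c2 was also found in 7 of 46 T cells (15.2%) and 6 of 65 B cells (9.23%), and Ace in 3 of 65 B cells (4.62%). Ly6c2 reached 10 CPM in 1 of 390 Mac III cells (0.256%) and 27 of 134 neutrophils (20.1%), and Ace in 57 of 390 Mac III cells (14.6%) at a summed 10.8 CPM. The markers Ccr2, Fcgr4 and Treml4 were not confined to Mac V. In Mac II, Ccr2 reached 10 CPM in 35 of 47 cells, and Fcgr4 and Treml4 each did in 27 of 47. Fcgr4 reached it in 200 of 390 Mac III cells and 52 of 134 neutrophils, and Ccr2 in 52 of 53 basophils. Fn1 was also present outside Mac V, with 1831 CPM over the 47 Mac II cells. Ear2 likewise stood at 2635 CPM in Mac II and 1060 CPM in Mac III.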

How the data were processed

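Raw read counts per gene and cell were used as the authors deposited them, 18072 genes by 1183 cells without molecular identifiers. Per the submitters' processing notes, STAR 2.5.2b, HTSeq 0.10 and the build name GRCh38 were used; that is a human build although the labels say mouse, so no coordinates were taken from it. The strand setting is not given in the sources used here. Cells, animals, plates and subtypes follow the labels, and every column matched a sample by title. The labels tie both sides to the same animals, which is where the block comes from.

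Raw counts were summed per animal and side (4 libraries, 1 residual degree of freedom, common biological coefficient of variation 1.08). The test was edgeR 4.0.16 (R 4.3.3) glmQLFit and glmQLFTest with side and animal, TMM, filterByExpr and Benjamini-Hochberg adjustment. SE is the fold change divided by the root of F. DESeq2 1.42.0 and limma 3.58.1 (voom) were alternatives. With the animal as a block, the p-values rest on how the difference between the sides varied between 2 animals. That spread was moderated over all tested genes.

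Genes were named as the 12 per direction with the largest fold, called ones first, with 50 CPM or more on the higher side and 10 CPM or more in 50% of its cells in each animal; list members past 4-fold and Ccl2 were named after their values were seen. Members and lists were chosen with earlier results of these data known. List medians were the same with genes at 0 reads set to their bound. Intervals cover counting error only. No doublet caller was run; no cells had identical counts. One listed gene is counted but not reported by name here.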

Additional observations from a re-analysis of the deposited data

Results flagged for a closer look

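Nlrp3, the sensor of an inflammasome, was the 1 gene of the role lists that differed at least 4-fold in opposite directions in the animals. Its log2 ratio of the Ly6c2 side over the Ace side (CPM + 1) was -2.018 (female) and 5.113 (male). Its summed levels were 6.71 CPM (Ly6c2 side) and 30.2 CPM (Ace side) in the female, and 39.3 CPM and 0.164 CPM in the male. The difference between the animals was not tested, and 142 genes in all showed such opposite differences.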

How the results depend on the processing

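All 12 called genes kept their direction in all 18 alternatives (Treml4 itself chose the cells in 1 of them), and no named gene reversed, but the counts of calls moved. Higher on the Ly6c2 side (4) and on the Ace side (8), calls numbered 494 and 416 with DESeq2, 22 and 22 with limma-voom, 12 and 14 with no filter on low counts, 31 and 58 with cells thinned to 100000 reads, 11 and 17 at a threshold of 1 CPM, 20 and 28 at 100 CPM, 10 and 16 on the second CD45 plates and 15 and 25 without cells with markers of another type (added after seeing the data). Without the replicate block they were 7 and 10; the pairing comes from the shared animal. With sides chosen by Ccr2 and Treml4 there was 1 call each (Ccr2 and Treml4 left out), and with all subtypes in the fit 3 on each side; of the 12 calls, 1 held in each of these 2 fits. Leaving out any 1 of the 4 libraries, with no block, gave 21 to 116 calls on the Ly6c2 side and 30 to 72 on the Ace side, most on the Ly6c2 side (116) without the female Ace library, where the lone library is assumed to vary like the others. The cause of these moves was not tested. Genes past 4-fold (2.12% and 1.88% of those tested) made up 5.86% and 5.85% at 2-fold, 1.04% and 0.903% at 8-fold, 4.18% and 2.95% at a minimum of 5 CPM and 0.311% and 0.592% at a minimum of 100 CPM. Genes detected per cell (mean of the animals' medians, 3069 and 2331.5) were 3958.5 and 2957.5 unthinned and 3368.5 and 2609 at 300000 reads. A rule of 2 of 10 genes gave 6 cycling cells on the Ly6c2 side and 3 on the Ace side. With 2 animals, missing the threshold does not show equal levels.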
